A study of Mus musculus with 28 samples.

Results

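Irf1 (ENSMUSG00000018899.16) is the mouse gene for interferon regulatory factor 1, and it is 1 of 12721 genes in a table of MC38 cells given cytokines and 1 of 12948 genes in a table of MC38 cells co-cultured with T cells. It was chosen from measured values, as a gene that rose with both TNF and IFNG and rose less with the pair than the single changes would add up to. Its values with TNF, IFNG and TNF + IFNG are therefore given as a description, without a test. MC38 is a mouse colon adenocarcinoma line derived from a C57BL/6 animal, and OT1 cells are CD8 T cells with a transgenic receptor for an ovalbumin peptide. The cytokine table has 2 libraries each of MC38 given TNF, IFNG, TNF + IFNG or supernatant of a co-culture, and of untreated MC38. In the other table, 3 libraries come from MC38 with OT1 cells and antibody against PD1, 3 from MC38 with OT1 cells and isotype antibody, and 3 from MC38 alone. The labels give 6 hours for the cytokines and the T cells, and no cytokine dose. They give no time for the supernatant, the untreated cells or MC38 alone. All groups are 1 cell line, and whether replicates came from separate cultures is not given, so a p-value here reflects only how far these libraries vary, possibly for technical reasons.

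IRF1 is a transcription factor that binds interferon-stimulated response elements and related sites in the promoters of antigen presentation, chemokine and antiviral genes. IFNG acts through its receptor chains IFNGR1 and IFNGR2 and the kinases JAK1 and JAK2, and many of its response genes carry GAS sites; TNF acts through its receptors and the NF-kB proteins. The Irf1 promoter is a textbook meeting point of both routes, with a GAS site and a kappaB site.

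On GRCm38 the gene lies at chr11:53770014-53778374 on the plus strand, with 10 annotated transcripts, 7 of them protein coding. The main coding form has 10 exons and a coding length of 990 bases, with a 3' UTR at chr11:53776444-53777323; another coding form ends further downstream, at position 53778374. The libraries read the 3' ends of transcripts and the tables hold 1 value per gene, so the forms were not separated. A predicted gene on the opposite strand, Gm17334, lies inside Irf1 and has no row in either table. The 250 bases before the first annotated start, from RefSeq on GRCm38.p6 at chr11:53769764-53770013, are shown because they hold sequence matches for both cytokine routes, in capitals:

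Irf1 promoter: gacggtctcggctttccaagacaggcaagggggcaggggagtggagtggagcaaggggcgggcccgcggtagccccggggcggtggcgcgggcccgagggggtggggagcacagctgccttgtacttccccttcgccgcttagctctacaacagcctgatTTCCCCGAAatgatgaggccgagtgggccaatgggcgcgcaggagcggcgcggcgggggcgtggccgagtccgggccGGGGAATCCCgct

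The first run of capitals matches the GAS pattern TTCNNNGAA, the same on both strands, at positions -90 to -82 from the start. The second matches the NF-kB consensus, read on both strands, at positions -13 to -4; the 2 matches do not overlap. No match to the core of the interferon-stimulated response element, GAAA followed by any 2 bases and GAAA, was found on either strand. Over 32851 RefSeq promoter windows of 300 bases, 8.3% held the GAS pattern, 8.46% the NF-kB consensus and 3.44% the response element core. Both of the patterns found here occurred in 210 windows, or 0.639%. The window of a second annotated start, 459 bases downstream, held none of the 3 patterns. These matches describe the letters in the windows and are not evidence of binding.

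Of the series' 28 samples, 19 are used and the 9 OT1 samples were not analysed here. The depth, estimated from the tied steps of low values, was 3420000 to 11300000 reads per library in the cytokine table and 3800000 to 11000000 in the co-culture table. The third anti-PD1 library has conflicting labels: its title and treatment call it untreated and its description ties it to the OT1 and PD1 column, by which it was placed. The column of the second isotype library names OT2 in place of OT1. T cell markers set the third library of MC38 alone apart: the 13 of 16 markers with a row summed to 55.2 to 71.3 CPM with anti-PD1, 64.1 to 71.3 CPM with isotype, and 3.02, 3.99 and 45.0 CPM in MC38 alone. In the first 2 libraries of MC38 alone 12 of the 13 were on the lowest 3 steps of values, and in the third 3 of 13. In values scaled to a common total, fewer cells of a type and less RNA per cell cannot be told apart. Of 9 colon epithelium markers, 5 have a row in the co-culture table, summing to at most 33.3 CPM in any library, and only Cdh1 has one in the cytokine table; Krt20, Cdh17, Vil1 and Cdx2 have none. Of 6 myeloid markers, Cd14 has a row in the co-culture table and Cd14 and Lyz2 in the cytokine table, summing to at most 6.69 and 9.26 CPM.

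Irf1 was high in every treated library. It had 778 and 697 CPM with TNF, 1079 and 1137 CPM with IFNG, 1419 and 1477 CPM with TNF + IFNG, and 1181 and 1239 CPM with supernatant, against 132 and 135 CPM in untreated cells. The group values did not overlap in any pair of groups, and the order from low to high was untreated, TNF, IFNG, supernatant, TNF + IFNG. Supernatant and IFNG are neighbours in that order, and their difference on the log2 scale, 0.13 ± 0.12 (SE), was about the size of its error. With TNF + IFNG Irf1 ranked 94th and 90th of 12721 genes, against 1233rd and 1206th in untreated cells. The estimated reads behind these values ran from 864 in an untreated library to 12300 in a supernatant library.

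**Figure D1:**
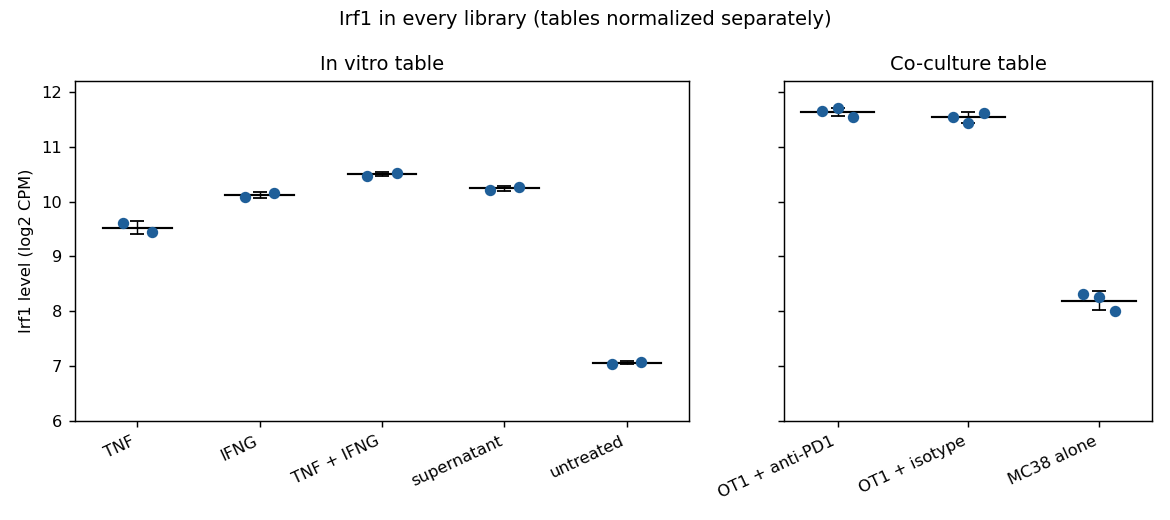
Irf1 level in log2 CPM in each library (points), with the group mean (line) and SD (bars), for the cytokine table on the left and the co-culture table on the right; the tables were normalized separately. All treated libraries of the cytokine table lie above 9.4 and both untreated libraries near 7.1; all co-cultures lie above 11.4 and MC38 alone between 7.99 and 8.32.

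On the log2 scale Irf1 was higher by 2.47 with TNF, 3.06 with IFNG and 3.44 with TNF + IFNG, each ± 0.12 (SE, n = 2 against 2). These are 5.53-fold, 8.32-fold and 10.9-fold of the untreated level. IFNG exceeded TNF by 0.59, and the pair exceeded IFNG by 0.39 and TNF by 0.98, all on the log2 scale. Adding TNF to IFNG thus came with 1.31-fold the Irf1 level of IFNG alone, against the 5.53-fold of TNF over untreated cells.

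How far the pair fell below additivity depended on the scale. Above the untreated mean of 133 CPM, TNF added 604 CPM and IFNG added 975 CPM, so that a sum on the linear scale gives 1713 CPM. Over the choice of single libraries in place of means this sum lay between 1641 and 1784 CPM, and the measured mean with both was 1448 CPM, or 84.5% of it. On the log2 scale the sum of the single differences gives a level of 12.58, which is 6125 CPM, and the measured level of 10.50 is 23.6% of that; the interaction was -2.08 ± 0.17 (SE). Both readings place the pair below the sum, by far more on the log2 scale, where additive means that the folds multiply. Irf1 was chosen for falling below additivity, so the direction is not a finding, and the span and the SE are no test of it.

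**Figure D2:**
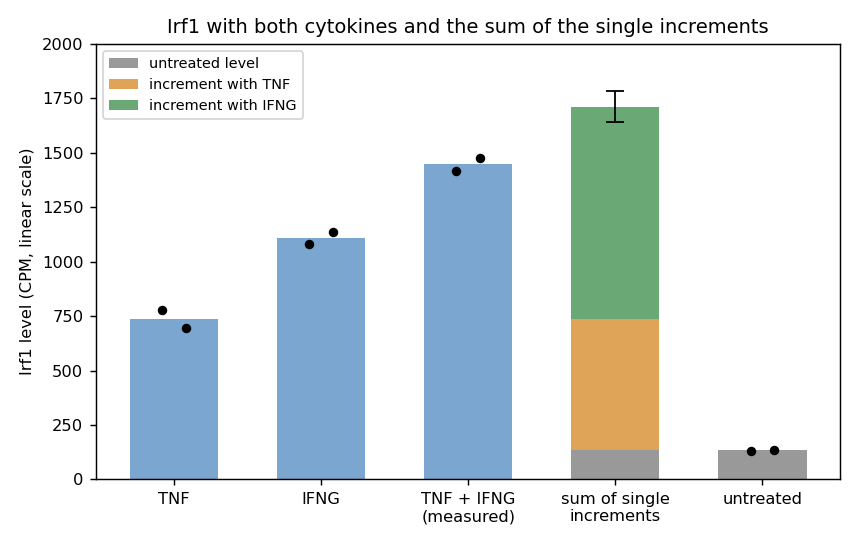
Irf1 level in CPM on a linear scale: bars are group means, points are libraries, and the stacked bar adds the TNF and IFNG increments to the untreated level, with a bar spanning 1641 to 1784 CPM for the choice of libraries. The measured mean with both cytokines, 1448 CPM, lies below that span, as a description only, since Irf1 was chosen for falling below additivity.

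The choice of Irf1 rests on 5 of 12720 genes that were called higher with each single cytokine, given here as a description. Choosing genes that are high with both, over the same untreated libraries, favours a negative interaction, so nothing is read from its sign or order among them. The interaction was -2.08 ± 0.17 for Irf1, -1.32 ± 0.31 for Parp14, -0.53 ± 0.37 for Cxcl10, -0.53 ± 0.23 for Rnf19b and -0.40 ± 0.45 for Gbp2b (SE). Parp14 encodes a mono-ADP-ribosyltransferase, Cxcl10 a chemokine for activated T cells, Rnf19b a ubiquitin ligase and Gbp2b a guanylate-binding protein.

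The supernatant libraries were not used to choose Irf1, although the untreated libraries they are set against were. With 1181 and 1239 CPM in supernatant against 132 and 135 CPM in untreated cells, Irf1 rose 9.08-fold, a log2 difference of 3.18 ± 0.12 (SE; 95% confidence interval 2.91 to 3.45). The limma test across all genes gave an adjusted p of 1.38e-05, and Irf1 ranked 37th of 12720 genes by its increase. In this comparison 57 genes passed as higher, 0.448% of those tested, and 0% passed as lower. The supernatant level lay 0.72 above TNF and 0.26 below TNF + IFNG on the log2 scale, each with an SE of 0.12.

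In co-culture Irf1 had 3201, 3325 and 3002 CPM with anti-PD1, 3002, 2766 and 3155 CPM with isotype, and 320, 304 and 255 CPM in MC38 alone. Every co-culture library was far above every library of MC38 alone, and the anti-PD1 and isotype libraries overlapped. The value 3002 occurs in both groups because the normalization gives genes of equal rank the same value, and Irf1 ranked 31st of 12948 genes in both libraries. In MC38 alone it ranked 448th, 470th and 562nd. The level of MC38 alone was not set against untreated cells of the other table, since the tables were normalized separately.

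With anti-PD1 Irf1 rose 10.9-fold over MC38 alone, a log2 difference of 3.44 ± 0.11 (SE, n = 3 against 3; adjusted p = 3.93e-08, limma). With isotype it rose 10.2-fold, by 3.35 ± 0.11 (adjusted p = 4.73e-08). Among 12707 genes tested, 8.42% passed as higher and 7.71% as lower with anti-PD1, and 7.64% and 6.22% with isotype; Irf1 ranked 91st and 98th by increase. Between anti-PD1 and isotype the difference was 0.10 ± 0.11, with a 95% confidence interval of -0.16 to 0.35 and an adjusted p of 1.00 (unadjusted 0.423); the interval reaches a shift of 0.35 on the log2 scale. No gene passed in that comparison, at 0%, while 347 had an unadjusted p under 0.05.

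T cell markers were higher in the co-cultures than in the first 2 libraries of MC38 alone. Whether OT1 transcripts add to the Irf1 value of the co-cultures was not tested. The third library of MC38 alone, with 45.0 CPM of T cell markers, had the lowest Irf1 of its group, 255 CPM. Without that library the Irf1 differences were 3.35 with anti-PD1 and 3.25 with isotype, and without the third anti-PD1 library the anti-PD1 difference was 3.48, all past the threshold.

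A list of 29 genes described as IRF1 targets in mouse or human cells was followed beside Irf1, with 24 members tested in the cytokine table and 25 in co-culture. Several are also targets of NF-kB. With TNF 4 of 24 rose and none fell, against 0.259% of all genes passing as higher and 0.0157% as lower. With IFNG 6 rose and none fell, against 0.354% and 0% of all genes. With TNF + IFNG 14 rose and none fell, against 4.77% and 4.25%, and with supernatant 7 rose and none fell, against 0.448% and 0%. The median log2 difference of the list was 0.36 with TNF, 0.70 with IFNG, 1.38 with TNF + IFNG and 0.72 with supernatant, while the median over all genes was 0.01, 0.04, 0.02 and 0.01. These 4 comparisons share the untreated libraries.

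**Figure D3:**
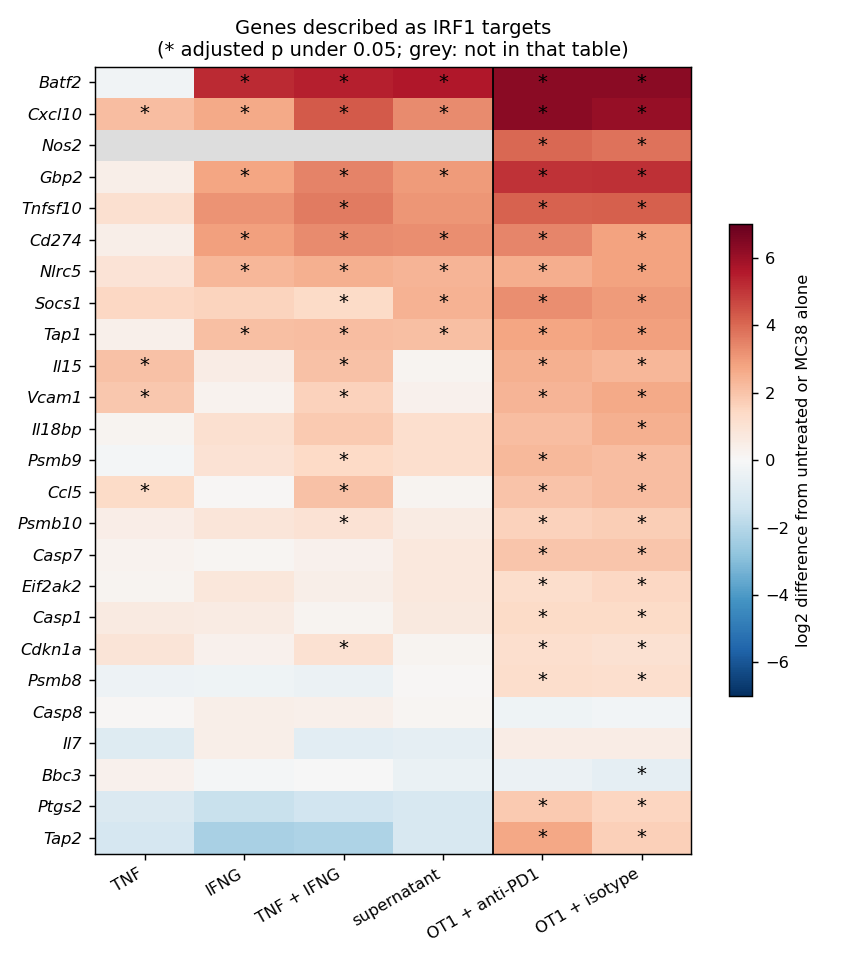
Log2 difference of each listed target (rows) from untreated cells or MC38 alone in 6 comparisons (columns), red for higher and blue for lower; asterisks mark an adjusted p under 0.05 and grey a gene absent from the table. Batf2, Gbp2, Tap1, Nlrc5 and Cd274 carry asterisks in every column but TNF, whereas Ccl5, Vcam1 and Il15 carry them with TNF and not with IFNG or supernatant.

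Cxcl10 passed with TNF and with IFNG, comparisons that share the untreated libraries, by 2.18 ± 0.26 with TNF and 2.66 ± 0.26 with IFNG on the log2 scale (SE). With TNF the others were Il15 (2.03), the cytokine that sustains CD8 T and NK cells, Vcam1 (1.88), a leukocyte adhesion molecule, and Ccl5 (1.33), a T cell chemokine. All 4 of these TNF calls were lost when either TNF library or either untreated library was left out, with adjusted p up to 0.237. With IFNG the others were Batf2 (5.21), a leucine zipper factor, Cd274 (2.87), the ligand of PD1, Gbp2 (2.77), a guanylate-binding protein, Nlrc5 (2.30), the activator of MHC class I genes, and Tap1 (2.11), a peptide transporter subunit. Nlrc5 lost its call in 9 of 10 fits with 1 library left out (adjusted p up to 0.309), Cd274 without either IFNG library or the first untreated library (up to 0.128), and Batf2 without the second IFNG library (0.0542).

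IFNG and TNF were also set against each other directly. Of the 24 targets 4 were higher with IFNG, against 0.314% of all genes, and 2 were lower, against 0.228%. Gbp2 had 52.0 and 52.6 CPM with IFNG, against 9.64 and 10.5 CPM with TNF and 7.10 and 8.24 CPM in untreated cells. Its IFNG libraries stood apart from the other 4, and its log2 difference between IFNG and TNF was 2.38 ± 0.17 (adjusted p = 0.000454). Tap1 had 71.5 and 71.3 CPM with IFNG, against 18.5 and 23.3 CPM with TNF, a difference of 1.78 ± 0.16 (adjusted p = 0.00163). Batf2 had 2.72 and 3.86 CPM with IFNG and was on the lowest steps of values in both TNF and both untreated libraries, so the size of its difference depends on how such values are treated: with log2(CPM + 1) its IFNG difference from untreated cells was 1.97. Cd274 differed by 2.43 ± 0.38 (adjusted p = 0.0281).

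The opposite order was seen for Vcam1 and Ccl5. Vcam1 had 94.3 and 93.5 CPM with IFNG, against 298 and 284 CPM with TNF and 81.6 and 76.3 CPM in untreated cells, a difference between IFNG and TNF of -1.63 ± 0.20 (adjusted p = 0.0074). Ccl5 had 44.2 and 46.5 CPM with IFNG, against 105 and 107 CPM with TNF, a difference of -1.23 ± 0.16 (adjusted p = 0.0121). The calls of Vcam1, Ccl5 and Cd274 in this contrast were lost when an IFNG or a TNF library was left out, with adjusted p up to 0.0788, 0.155 and 0.252, whereas those of Gbp2, Tap1 and Batf2 held in each such fit.

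With TNF + IFNG the 5 targets with the largest differences were Batf2 (5.46), Cxcl10 (4.31), Tnfsf10 (3.65), which encodes the death ligand TRAIL, Gbp2 (3.46) and Cd274 (3.31). Cxcl10 had 397 and 596 CPM with both cytokines, 116 and 107 CPM with TNF, 152 and 159 CPM with IFNG, and 26.1 and 23.2 CPM in untreated cells. Its pair libraries were the highest of all. Batf2 and Tnfsf10 were on the lowest steps in both untreated libraries, and with log2(CPM + 1) their differences were 2.17 and 1.24, so their place in this order depends on the scale. Tnfsf10 lost its call without any 1 of the IFNG, TNF + IFNG or untreated libraries (adjusted p up to 0.17). With supernatant the 5 largest past the threshold were Batf2 (5.63, or 2.29 with log2(CPM + 1)), Cxcl10 (3.34), Cd274 (3.23), Gbp2 (2.97) and Socs1 (2.41), which encodes a JAK inhibitor. Tnfsf10 differed by 3.07 but did not pass (adjusted p = 0.297). Socs1 had 147 and 87.8 CPM with supernatant, against 18.8 and 24.1 CPM in untreated cells, and its call was lost without the first supernatant library or either untreated library (adjusted p up to 0.123). With supernatant, Cd274 missed the threshold once untreated replicate 1 was left out (adjusted p = 0.0507). Ccl5, Vcam1 and Il15 did not pass with supernatant, and each was lower with supernatant than with TNF + IFNG, by 1.88, 1.32 and 1.88 on the log2 scale (adjusted p = 0.00389, 0.0475 and 0.0475), against 0.173% of all genes passing as lower there. These 3 calls were lost in 0, 7 and 8 of 10 fits with 1 library left out.

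In co-culture nearly the whole list moved. With anti-PD1 21 of 25 targets rose and none fell, against 8.42% of all genes passing as higher, with a median log2 difference of 2.26 against -0.06 over all genes. With isotype 22 rose and 1 fell, against 7.64% and 6.22% of all genes, with a median of 2.17 against -0.06; the one that fell was Bbc3, which encodes the death protein PUMA, at -0.64, a call lost in 7 of 9 fits with 1 library left out. The largest differences were those of Cxcl10 and Batf2: 6.32 and 6.31 with anti-PD1, and 6.10 and 6.31 with isotype. They were followed by Gbp2 (5.04 and 5.10), Tnfsf10 (4.15 and 4.18) and Nos2 (4.01 and 3.82), the inducible nitric oxide synthase, in the same order of groups. With log2(CPM + 1) Batf2 differed by 4.98 with anti-PD1 and 4.99 with isotype. Over the alternatives Nos2 fell as low as 2.85 with anti-PD1 and 2.69 with isotype. The lowest values of Cd274 were 3.29 and 2.71, so the place of Nos2 in this order depends on the setting. Cxcl10 had 3155, 2837 and 2431 CPM with anti-PD1 and 2534, 2504 and 2192 CPM with isotype, against 31.2, 27.4 and 50.6 CPM in MC38 alone. Every co-culture library was above every library of MC38 alone for Cxcl10. Without the third library of MC38 alone 22 targets passed with anti-PD1 and 22 with isotype.

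Between anti-PD1 and isotype 0 of 25 targets passed. Among the 25 targets 2 had an unadjusted p under 0.05 (limma), against 347 of all 12707 genes. Named after their values were seen, these were Cd274, higher by 0.58 ± 0.15, and Tap2, a peptide transporter subunit, higher by 1.01 ± 0.24, both at an adjusted p of 1.00. Cd274 had 127, 150 and 146 CPM with anti-PD1 and 106, 83.8 and 93.5 CPM with isotype. Tap2 had 129, 161 and 130 CPM with anti-PD1 and 101, 48.6 and 67.7 CPM with isotype, while its single values in the cytokine table were scattered, at 50.9 and 8.44 CPM with supernatant.

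Of 12 genes of the IFNG receptor pathway, none passed with TNF, 3 rose with IFNG, 6 rose with TNF + IFNG and 4 rose with supernatant, against 0.259%, 0.354%, 4.77% and 0.448% of all genes passing as higher. Stat2, a transcription factor of type I interferon signalling, rose by 2.65 with IFNG, 2.29 with TNF + IFNG and 2.75 with supernatant, and Stat3, which transduces interleukin 6 family signals, by 1.32, 0.91 and 1.62 in the same comparisons. Stat3 lost its call in 3 of 10 fits with 1 library left out with IFNG, and in 2 of 10 with TNF + IFNG. Socs1 rose by 1.35 and Ptpn2, a phosphatase of JAK and STAT proteins, by 0.74 with TNF + IFNG; each lost its call in most fits with 1 library left out (adjusted p up to 0.163 and 0.255).

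The receptor chains did not pass in any cytokine comparison. Ifngr1 differed by 0.48 with TNF, 0.14 with IFNG, 0.11 with TNF + IFNG and 0.12 with supernatant (SE 0.32). Ifngr2 differed by 1.31 with TNF (adjusted p = 0.129), and by 0.86 with TNF + IFNG (adjusted p = 0.0634). In co-culture 9 of the 12 rose and Jak1, a receptor kinase, fell with anti-PD1 by 0.68, against 8.42% and 7.71% of all genes, and 7 rose with isotype, against 7.64%. Socs1 led with 3.27 with anti-PD1 and 3.01 with isotype, followed by Socs3, another inhibitor of JAK signalling, with 2.67 and 2.26, Jak2, the other receptor kinase, with 1.39 and 1.41, and Stat3 with 1.26 and 1.29. Ifngr1 rose by 0.76 and 0.82, and Ifngr2 by 0.99 with anti-PD1 and had a difference of 0.78 with isotype (adjusted p = 0.0546). With 1 library left out, the anti-PD1 calls of Ifngr1, Ifngr2 and Jak1 were lost in 3, 2 and 3 of 9 fits (adjusted p up to 0.0603, 0.0702 and 0.0949).

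Of 20 genes from the TNF receptors to NF-kB, 3 rose with TNF, none passed with IFNG, 9 rose and 1 fell with TNF + IFNG, and none passed with supernatant. Of all genes 0.259% passed as higher with TNF, 0.354% with IFNG and 0.448% with supernatant, so none of 20 is near the share over all genes. Of the 20 differences 14 were positive with IFNG and 16 with supernatant. Their medians were 0.12 and 0.17, against 0.04 and 0.01 over all genes. With TNF + IFNG 4.77% of all genes passed as higher and 4.25% as lower, so the 1 of 20 that fell is also near that share. Nfkbia, which encodes the inhibitor IkBa and is itself an NF-kB target, had 2479 and 2316 CPM with TNF, 213 and 198 CPM with IFNG, 2060 and 1650.1 CPM with TNF + IFNG and 292 and 270 CPM with supernatant, against 235 and 221 CPM in untreated cells. Only the libraries given TNF were high. Its differences were 3.39 ± 0.14 with TNF (adjusted p = 3.4e-05) and 3.02 ± 0.14 with TNF + IFNG (adjusted p = 1.34e-05). With supernatant it differed by 0.30 and did not pass. Irf1 differed by 3.18 with supernatant, for which the labels give no time. Which part of the supernatant raised Irf1 was not tested. Nfkbie, a related inhibitor, rose by 3.17 with TNF and 3.74 with TNF + IFNG, and Relb, an NF-kB subunit, by 1.29 and 0.98. The calls of Relb were lost in 6 of 10 and 2 of 10 fits with 1 library left out. With TNF + IFNG the NF-kB subunit gene Rel rose by 1.67, and Birc3 and Birc2, ubiquitin ligases of the TNF receptor complex, by 1.54 and 1.19; these calls were lost in 5, 3 and 7 of 10 such fits.

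Rela, the p65 subunit, differed by 0.65 with TNF (adjusted p = 0.245) and rose by 0.76 with TNF + IFNG (adjusted p = 0.0268), a call lost in 5 of 10 such fits. Nfkb1, which encodes p50, differed by 0.53 with TNF and 0.60 with TNF + IFNG, short of the threshold. Tnfrsf1a, the main TNF receptor, differed by -0.20 with TNF and 0.50 with IFNG, and Tnfrsf1b by 0.35 and 0.08, none past the threshold. Chuk, a kinase upstream of NF-kB, fell by 0.81 with TNF + IFNG, lost in 8 of 10 such fits. In co-culture 11 of the 20 rose with anti-PD1 and 11 with isotype, against 8.42% and 7.64% of all genes. Nfkbia rose by 3.93 and 3.91, with 3449 to 3614 CPM in the anti-PD1 libraries and 3449 to 3508 CPM in the isotype libraries, against 215 to 248 CPM in MC38 alone. Tnfaip3, which encodes the NF-kB inhibitor A20, rose by 3.08 and 2.55, Nfkbib, another IkB gene, by 2.95 and 2.90, Nfkbie by 2.95 and 3.08, and Birc3 by 2.19 and 1.71. Over the alternatives Tnfaip3 fell as low as 1.87 and 1.44, against lowest values of 2.67 and 2.61 for Nfkbib, so its place depends on the setting. Rela rose by 1.03 and 1.04, Nfkb1 by 1.33 and 1.44, and Tnfrsf1a by 1.00 and 0.90, while Tnfrsf1b differed by 0.21 and 0.18.

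Among the other IRF genes, 6 of 8 were tested in the cytokine table. Irf9, a DNA-binding subunit of the type I interferon response complex, rose by 1.81 with IFNG, 1.96 with TNF + IFNG and 1.98 with supernatant, each ± 0.16, and differed by 0.03 with TNF. Irf2, which binds the same elements as IRF1, rose by 1.28 ± 0.16 with TNF + IFNG. No IRF gene of the list passed with TNF, against 0.259% of all genes passing as higher. Irf8 differed by 0.43 with TNF, 2.43 with IFNG, 2.83 with TNF + IFNG and 3.25 with supernatant, and did not pass in any of them. In co-culture 6 of 7 tested rose with anti-PD1 and 6 with isotype, against 8.42% and 7.64% of all genes: Irf8 by 4.46 and 4.53, Irf4 by 3.47 and 3.12, Irf5 by 2.25 and 1.93, Irf7 by 1.45 and 1.59, Irf2 by 1.26 and 1.38 and Irf9 by 0.57 and 0.62. Irf8 and Irf4, which act in lymphoid and myeloid cells, were on the lowest steps in the first 2 libraries of MC38 alone and at 2.09 and 1.62 CPM in the third, the one with T cell markers. The call of Irf4 was lost in 1 of 9 fits with 1 library left out with anti-PD1 and in 4 of 9 with isotype. The part of T cell transcripts in these values was not tested.

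The annotation places 45 genes within 500 kb of Irf1 by their start, 26 of them protein coding, and 12 were tested in the cytokine table and 15 in co-culture. None passed with TNF, IFNG or supernatant, against 0.259%, 0.354% and 0.448% of all genes passing as higher. With TNF + IFNG 1 rose, against 4.77%. This was Gm12216, a predicted protein-coding gene on the minus strand whose start lies 89.2 kb downstream. It runs toward Irf1, so its 3' end, at position 53783418, faces the Irf1 end at 53778374. The libraries read 3' ends, and whether reads running past the end of Irf1 add to the Gm12216 values was not tested. Gm12216 had 1.64 and 2.80 CPM with TNF, 2.90 and 2.72 CPM with IFNG, 4.81 and 2.05 CPM with TNF + IFNG and 3.47 and 3.51 CPM with supernatant, against 0.698 and 0.547 CPM in untreated cells. All treated libraries were above both untreated ones at these low levels. The difference was 2.35 ± 0.47 with TNF + IFNG (adjusted p = 0.0268), and 2.50 ± 0.47 with supernatant (adjusted p = 0.0986). With anti-PD1 it was 1.43 (adjusted p = 0.0375) and with isotype 1.48 (adjusted p = 0.035). These calls were lost in 5 of 10 fits with 1 library left out for TNF + IFNG, and in 7 of 9 for each co-culture.

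**Figure D4:**
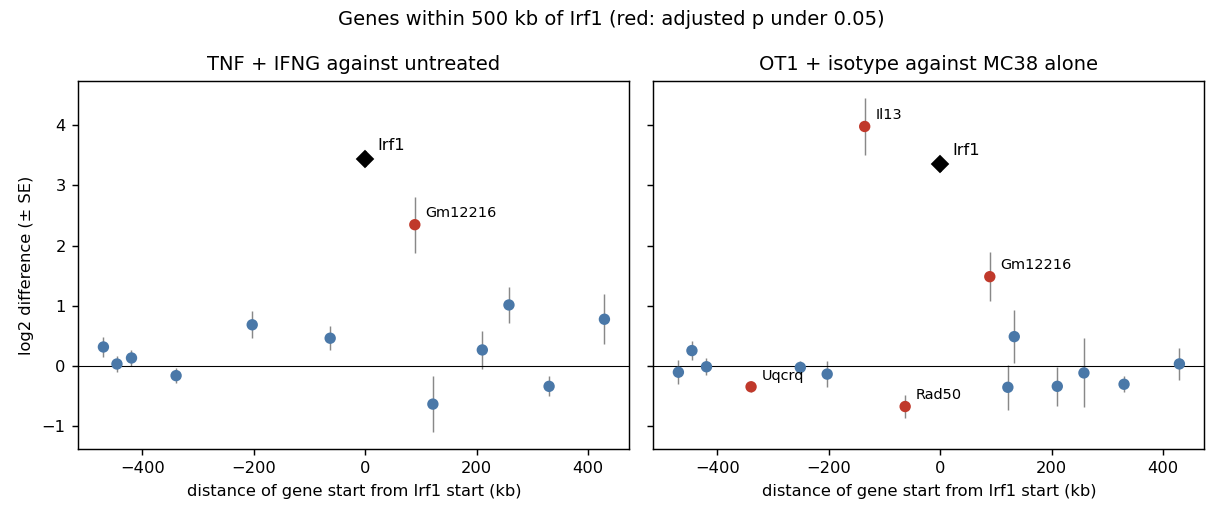
Log2 difference (± SE) of genes within 500 kb of Irf1 against the distance of their start from its own in kb, for TNF + IFNG (left) and for OT1 with isotype (right); black diamonds are Irf1 and red points passed an adjusted p of 0.05. Gm12216, whose start lies 89.2 kb downstream and whose 3' end faces that of Irf1, is red in both panels, and no other neighbour is red on the left.

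In co-culture 2 of the 15 neighbours rose and 1 fell with anti-PD1, against 8.42% and 7.71% of all genes. With isotype 2 rose and 2 fell, against 7.64% and 6.22%. These few genes are near the shares over all genes. Il13, a type 2 cytokine gene whose start lies at -135.3 kb from that of Irf1, rose by 3.54 with anti-PD1 and 3.97 with isotype. It had 1.84, 3.25 and 2.70 CPM with anti-PD1 and 3.79, 3.40 and 3.11 CPM with isotype, and was on the lowest steps in all 3 libraries of MC38 alone. T cell markers were higher in the same libraries, and their part in Il13 was not tested. Rad50, a DNA repair gene starting at -62.7 kb, fell by 0.78 with anti-PD1 and 0.67 with isotype, and Uqcrq, a subunit of the respiratory chain, fell by 0.34 with isotype. With 1 library left out, the call of Rad50 was lost in 3 of 9 fits with anti-PD1 and 7 of 9 with isotype, and that of Uqcrq in 5 of 9.

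Genes were ranked by how closely their differences followed those of Irf1, as the root mean square distance over 6 comparisons (4 in the cytokine table, 2 in co-culture) among 12165 genes tested in both tables. The 4 share the untreated libraries and the 2 share MC38 alone, so the 6 are not independent. Parp14 was nearest, at 0.50 on the log2 scale, and passed in all 6. Its differences were 2.08 with TNF, 2.99 with IFNG, 3.75 with TNF + IFNG, 3.09 with supernatant, 2.49 with anti-PD1 and 2.77 with isotype. Its TNF call did not hold in every alternative, where the difference ran from 1.76 to 2.39. Parp14 is also among the genes called higher with each single cytokine. Gm13232, a processed pseudogene, followed at 0.63 but passed in none, with SEs of 1.02 to 1.38. Tnfsf10 (0.71), Gbp3 (0.76), a guanylate-binding protein gene, Cd274 (0.86) and Trim21 (0.87), which encodes a cytosolic antibody receptor, came next. None of these last 4 passed with TNF, where they differed by 1.13, 0.93, 0.43 and 1.39, against 2.47 for Irf1. Irf1 was chosen from its TNF, IFNG and TNF + IFNG values, which also enter this ranking. Its higher TNF value is therefore not a finding. Trim21 passed in co-culture only.

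**Figure D5:**
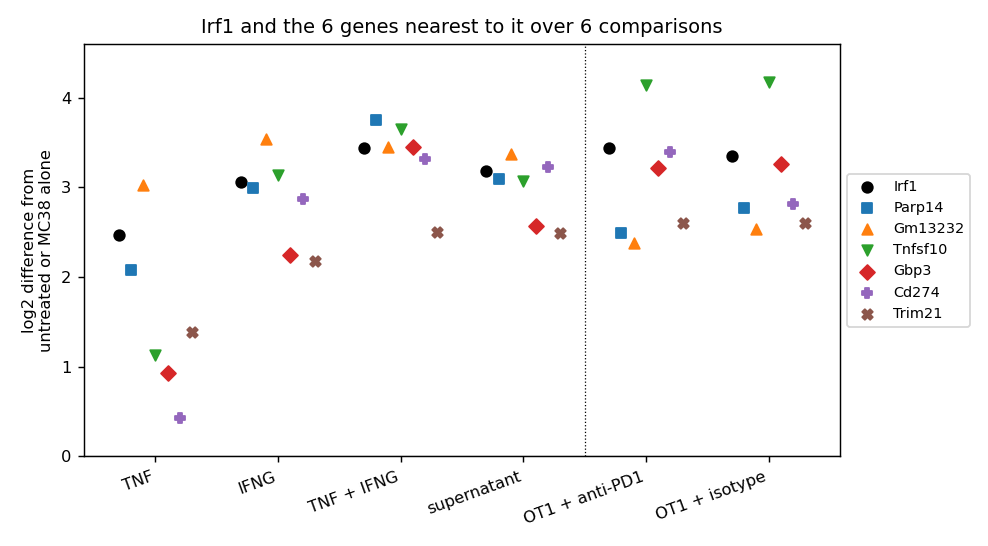
Log2 difference from untreated cells or MC38 alone (vertical axis) of Irf1 (black circles) and the 6 nearest genes in 6 comparisons. The spread between genes is widest with TNF, where Cd274 is lowest at 0.43, Irf1 is at 2.47 and Gm13232 is highest at 3.03.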

How the data were processed

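RNA of MC38 cells was made into QuantSeq 3' mRNA libraries, per the labels' protocols. Per the submitters' processing notes the tools were HISAT2, featureCounts, Subread, limma, FastQC and cutadapt 1.7, and the builds GRCm38 and mm10. No source used here says whether counting used strand. The unit of the deposited tables is log2 CPM, as read from the numbers, which sum to 993229 to 998505 per library as CPM. The number of tied low steps differs between libraries, but at high values equal ranks share a value within a table, as after quantile normalization. A shift of most transcripts together cannot be seen in such values. Depth was estimated by counting the steps of value under each library's median.

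Each table was fitted alone with limma 3.58.1 (R 4.3.3), with an intensity trend, all groups in 1 fit, and no block; genes reaching a log2 value of 0 in 2 libraries (3 in co-culture) were kept (12720 and 12707), and p-values were adjusted over them by Benjamini-Hochberg, with a threshold of 0.05. The fit was tested on simulated data. Folds are on the log2 scale of the deposited values. Irf1 and the gene lists were chosen with earlier results of these data known. From each list the members past the threshold are named, at most 5 by size in each comparison with untreated cells or MC38 alone, with the receptor chains, Rela and Nfkb1 whatever their value, and the 6 genes nearest to Irf1; 1 gene that this rule names is not reported here. Promoter sequences are from RefSeq and positions from GENCODE. Alternatives were no trend, other filters, log2(CPM + 1), median centring, a replicate block, library weights, only the compared groups, and each library left out.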

Additional observations from a re-analysis of the deposited data

How the results depend on the processing

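Irf1 kept its direction and its side of the threshold in all 4 tested comparisons under every alternative run. Its difference ranged from 3.15 to 3.22 with supernatant (adjusted p 8.79e-06 to 0.00205), from 3.35 to 3.51 with anti-PD1 (4.80e-09 to 4.79e-06) and from 3.25 to 3.41 with isotype (3.80e-09 to 8.29e-06), and between anti-PD1 and isotype from 0.04 to 0.14 (0.889 to 1.00). With 1 library left out, the untested TNF difference ranged from 2.39 to 2.55 and the interaction from -2.16 to -2.001. Whether the replicate numbers pair the libraries was not settled. In deviations from their group means, same-numbered libraries correlated at -0.40 to 0.12 in the cytokine table and -0.08 to 0.13 in co-culture. With 2 libraries per group these deviations mirror each other, so the cytokine range cannot decide it. A low correlation also does not exclude pairing by design. With the replicate block the Irf1 differences were unchanged at 3.18, 3.44, 3.35 and 0.10, while genes passing with TNF + IFNG numbered 594, against 1147 without it.

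Counts of genes past the threshold depended on the setting far more. Over all alternatives they ran from 11 to 72 with TNF, 29 to 488 with IFNG, 88 to 2155 with TNF + IFNG (88 without the second untreated library), 36 to 65 with supernatant, 1226 to 2571 with anti-PD1 (1228 without the third anti-PD1 library), 1006 to 2386 with isotype (1006 without the third isotype library), 0 to 9 for the interaction and 0 to 1 for anti-PD1 against isotype. The listed IRF1 targets passing ran from 0 to 6 with TNF, 3 to 12 with IFNG, 7 to 17 with TNF + IFNG, 3 to 7 with supernatant, 20 to 22 with anti-PD1 and 20 to 23 with isotype. The cause was not tested. None of the listed genes that passed changed sign. Precision is limited by 2 libraries per group in the cytokine table and by values on the lowest steps, which stand for few reads.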
